A study of Homo sapiens with 4 samples.

Results

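The genes followed here belong to the Hippo pathway and were traced across the series, taken by their symbols in the table of expression levels and by their Ensembl identifiers in the table of reads. They were the coactivators YAP1 and WWTR1 (TAZ), the transcription factors TEAD1 to TEAD4, the kinases LATS1 and LATS2, and the downstream genes AMOTL2 and ANKRD1, and made up 10 of the 58735 genes counted. RNA came from MHCC-97H cells, an established hepatocellular carcinoma (HCC) line of WT genotype, and each of the 4 conditions had 1 library, all of batch 1. Cells of the first condition received PBS for 24 h, and those of the others received 2 μg of migrasomes (Migs), the vesicles that migrating cells leave on their retraction fibres, for the same 24 h. Normo-Migs came from MHCC-97H cells kept in normoxia, hypo-Migs from the same line in hypoxia, and CD147KO-Migs from its CD147 knockout derivative in hypoxia, so the knockout concerned the donor cells and not the recipients. Reads on genes numbered between 33882496 and 40285223 per library.

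In the Hippo pathway, a cascade of kinases ends with LATS1 and LATS2, which phosphorylate YAP1 and TAZ and so keep them in the cytoplasm or mark them for degradation. Unphosphorylated YAP1 and TAZ enter the nucleus and, having no DNA-binding domain, act through TEAD factors on genes of growth and cell adhesion. In the liver the pathway is known for its control of organ size, and YAP1 is a known oncogene of HCC. RNA levels measure none of the phosphorylation, location or stability of these proteins.

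Levels are given as FPKM, which divides the reads of a gene by its length and by library size, with the exact 95% Poisson interval of the reads behind them. Differences between 2 libraries are log2 fold changes from reads after TMM scaling with a prior count of 2, followed by the exact 95% interval of the ratio of reads. These intervals cover counting error only. With 1 library per condition no spread between cultures is known, so each difference compares libraries and not conditions, and no test of the conditions was possible. Genes whose log2 fold change was 1 or more in size are called past the fold. In bulk RNA, fewer cells that express a gene and less of its RNA per cell cannot be told apart.

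The PBS-labelled library stood apart from the others before any Hippo gene was considered. At or below 3 reads there lay 251 genes that each Mig library covered with 100 reads or more, whereas the same count was 0 after normo-Migs, 0 after hypo-Migs and 0 after CD147KO-Migs. Past the fold against it were 30.2% of the 19895 genes tested after normo-Migs, 30.5% after hypo-Migs and 30.3% with CD147KO-Migs, while the pairs of Mig libraries gave 9.12% to 9.69%. Of 12 hepatocyte and HCC markers, AFP, ALB, APOB and TTR had 0 reads in every library, KRT8 and KRT18 were abundant in every library, and FGB had 0 reads in the PBS-labelled library and 561 to 832 reads in the others. SERPINA1 lay in the opposite order, with 25 reads in the PBS-labelled library and 2 to 10 in the others. APOH had 0 reads there and 10 to 21 in the others, and HNF4A had 134 and 141 to 246. TF and APOA1 had at most 10 and 2 reads in any library. Summed levels of 5 fibroblast markers were 22.9 CPM (reads scaled to the total of reads on genes) in the PBS-labelled library and 157 to 167 CPM in the Mig libraries, those of 5 endothelial markers were 3.48 and 4.69 to 5.56 CPM, and those of 5 immune markers were 0.649 and 1.42 to 2.51 CPM. The sums hid markers of opposite order. Of the endothelial markers, PECAM1 had 16 reads in the PBS-labelled library and 118 to 146 in the others, and ROBO4 had 0 and 1 to 14. CDH5 had 84 and 30 to 72 reads, TEK 11 and 0 to 3, and VWF 7 and 0 to 2. Of the immune markers, CD14 had 14 and 47 to 86 reads, and CD68 had 6 and 0 to 2. Of the fibroblast markers, COL1A2 had 2 reads in the PBS-labelled library and 0 in the others, while the rest were higher in each Mig library. COL1A1 had 681 and 3472 to 4017 reads, PDGFRB 70 and 1747 to 2446, DCN 22 and 77 to 156, and LUM 0 and 49 to 72. Among these markers, CD3E and MS4A1 had 0 reads in every library, and the part of these differences in the results below was not tested. Every comparison with PBS rests on that single library and shares it with the others, so each Hippo gene was also compared between Mig libraries alone. Whether the PBS-labelled library is a matched control from the same culture is not settled by the labels, and no difference from it can be assigned to Migs on these data.

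TEAD factors bind DNA at the letters GGAATG, or CATTCC on the opposite strand. RefSeq promoter windows of GRCh38.p14, which run from 250 bases before a transcript start to 50 bases after it, were found for 8 of the 10 genes and searched for these letters on both strands. The windows of YAP1, LATS2 and ANKRD1 held them, as did 1 of the 2 windows of AMOTL2, which lies inside the gene span, and those of WWTR1, TEAD2, TEAD3 and LATS1 did not. TEAD1 and TEAD4 had no window. Of all 35116 windows, 14.0% held the letters, and of the 27305 genes with a window 16.7% did so in at least 1. The matches are shown with 12 bases on each side, because they are the letters through which YAP1, TAZ and TEAD proteins could meet DNA at these genes, and CCN2, a textbook target, is added. Capitals mark the letters searched, each line runs 5′ to 3′ on the strand of its gene, and the last pair of CCN2 matches lie in overlapping stretches.
YAP1 (chr11:102110273-102110302, + strand, match at -162 from the start): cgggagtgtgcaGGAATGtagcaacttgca
LATS2 (chr13:21061560-21061589, - strand, match at 10): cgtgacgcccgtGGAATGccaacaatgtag
AMOTL2 (chr3:134374499-134374528, - strand, match at -69): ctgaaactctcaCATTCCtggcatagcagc
ANKRD1 distal (chr10:90921290-90921319, - strand, match at -220): atcaccaccaaaGGAATGgccctctcacat
ANKRD1 proximal (chr10:90921198-90921227, - strand, match at -128): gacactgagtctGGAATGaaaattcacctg
CCN2 distal (chr6:131951524-131951553, - strand, match at -169): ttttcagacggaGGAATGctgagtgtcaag
CCN2 middle (chr6:131951459-131951488, - strand, match at -104): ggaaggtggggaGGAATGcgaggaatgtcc
CCN2 proximal (chr6:131951450-131951479, - strand, match at -95): ggaggaatgcgaGGAATGtccctgtttgtg
A match describes the letters of these windows and shows no binding in these cells.

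YAP1 showed the largest differences from the PBS-labelled library among the 10 genes. YAP1 (ENSG00000137693) lies at chr11:102110461-102233423 on the + strand of hg38 and encodes the main transcriptional coactivator of the pathway. It had 38369 reads in the PBS-labelled library, 4375 after normo-Migs, 5136 after hypo-Migs and 4393 after CD147KO-Migs. Its level was 176 FPKM (174 to 178) in the PBS-labelled library and 20.2 (19.6 to 20.8), 20.1 (19.6 to 20.7) and 19.7 (19.2 to 20.3) FPKM with normo-Migs, hypo-Migs and CD147KO-Migs. One library was thus high, and the intervals of the 3 Mig libraries overlapped. By FPKM, YAP1 ranked 146 of 58735 genes in the PBS-labelled library and between 2390 and 2456 in the Mig libraries. The log2 fold change against PBS was -3.11 (-3.16 to -3.07) with normo-Migs, -3.12 (-3.16 to -3.08) with hypo-Migs and -3.15 (-3.19 to -3.10) with CD147KO-Migs, or 8.66-fold, 8.69-fold and 8.86-fold lower in the Mig libraries. Between Mig libraries its log2 fold changes were small. Hypo-Migs against normo-Migs gave -0.01 (-0.06 to 0.05), a sign that turned with the scaling, and hypo-Migs against CD147KO-Migs gave 0.03 (-0.03 to 0.09). Of its pseudogenes, YAP1P1 had at most 4 reads and YAP1P2 had 0 in every library. The antisense gene AP000942.2 inside YAP1 also had 0 reads in every library.

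WWTR1, which encodes TAZ, the paralogue and partner of YAP1, lay in the opposite order. WWTR1 (ENSG00000018408) lies at chr3:149517235-149736714 on the - strand. It had 1274 reads in the PBS-labelled library, 1851 after normo-Migs, 2271 after hypo-Migs and 2122 after CD147KO-Migs. Its level was 4.38 FPKM (4.14 to 4.63) in the PBS-labelled library and 6.40 (6.11 to 6.70), 6.67 (6.40 to 6.95) and 7.13 (6.83 to 7.44) FPKM in the Mig libraries in the same order. The PBS-labelled library was the lowest and its interval overlapped none of the others. Against it the log2 fold changes were 0.56 (0.45 to 0.66), 0.62 (0.52 to 0.72) and 0.71 (0.61 to 0.82), none of them past the fold. Between hypo-Migs and CD147KO-Migs the log2 fold change was -0.10 (-0.18 to -0.01), and between normo-Migs and CD147KO-Migs it was -0.16 (-0.25 to -0.07). The overlapping antisense gene WWTR1-AS1 had 5 to 37 reads, at most 2.90% of the lowest WWTR1 library.

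The balance of the coactivators therefore differed between the PBS-labelled library and the others. YAP1 made up 97.6% of the summed FPKM of YAP1 and WWTR1 in the PBS-labelled library and 73.4% to 76.0% in the Mig libraries. The FPKM of YAP1 was 40.2 times that of WWTR1 in the PBS-labelled library and 2.77 to 3.16 times in the Mig libraries. The summed level of both coactivators was 181 FPKM in the PBS-labelled library and 26.6, 26.8 and 26.9 FPKM with normo-Migs, hypo-Migs and CD147KO-Migs.

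**Figure D1:**
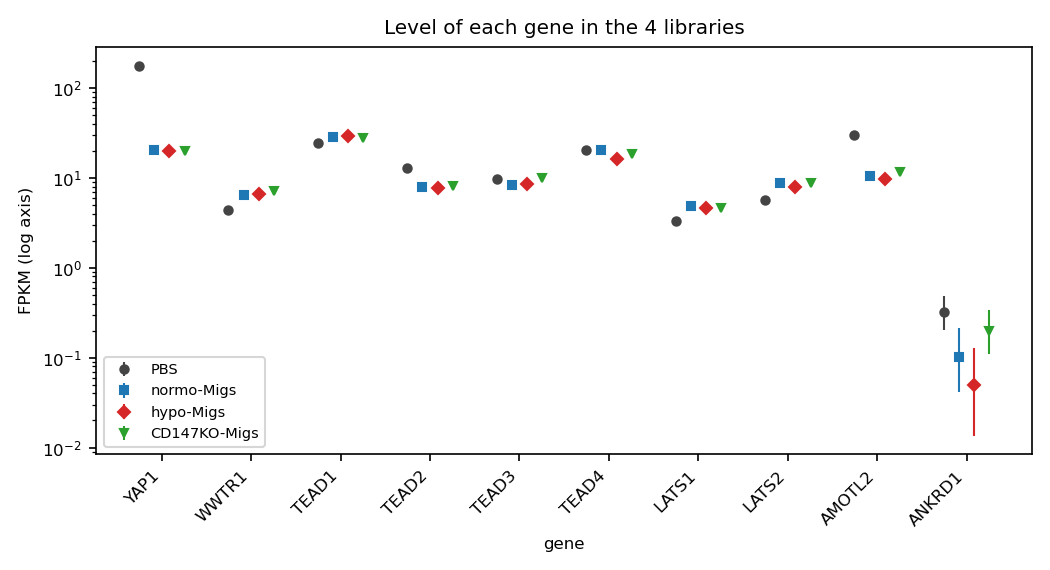
Level of each of the 10 genes in each library, in FPKM on a log axis, with the exact 95% Poisson interval of the reads as bars, which are shorter than the symbols for all but ANKRD1. YAP1 stands at 176 FPKM in the PBS-labelled library and near 20.1 FPKM in the Mig libraries, AMOTL2 and TEAD2 are also highest in the PBS-labelled library, and WWTR1, TEAD1, LATS1 and LATS2 are lowest there.

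The TEAD genes encode the DNA-binding partners of YAP1 and TAZ, and all 4 were expressed. TEAD1 (ENSG00000187079, chr11:12674591-12944483, + strand) had 8741 reads in the PBS-labelled library, 10079 after normo-Migs, 12288 after hypo-Migs and 10071 after CD147KO-Migs, which correspond to 24.6 (24.1 to 25.1), 28.5 (28.0 to 29.1), 29.5 (29.01 to 30.06) and 27.7 (27.2 to 28.3) FPKM. It was lowest in the PBS-labelled library, highest with hypo-Migs, and the most abundant TEAD in every library. Its log2 fold changes against PBS were 0.22 (0.18 to 0.27), 0.27 (0.23 to 0.31) and 0.18 (0.14 to 0.22) with normo-Migs, hypo-Migs and CD147KO-Migs.

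TEAD2 (ENSG00000074219, chr19:49340595-49362457, - strand) showed the reverse order. It had 1313 reads in the PBS-labelled library, 806 after normo-Migs, 938 after hypo-Migs and 854 after CD147KO-Migs, or 12.7 (12.1 to 13.4), 7.87 (7.34 to 8.43), 7.77 (7.29 to 8.29) and 8.11 (7.57 to 8.67) FPKM. The PBS-labelled library was the highest, and the intervals of the Mig libraries overlapped each other. Its log2 fold changes against PBS were -0.68 (-0.81 to -0.56), -0.70 (-0.83 to -0.58) and -0.64 (-0.77 to -0.52). TEAD2 overlaps CD37 on the opposite strand. CD37 had 255 reads in the PBS-labelled library, 147 after normo-Migs, 186 after hypo-Migs and 179 after CD147KO-Migs, beside 1313, 806, 938 and 854 reads of TEAD2. The handling of strands is not given in the sources used here, so reads in the shared stretch cannot be assigned with certainty.

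TEAD3 (ENSG00000007866, chr6:35473597-35497076, - strand) was alike in the PBS-labelled library and with CD147KO-Migs, and lower in the other libraries. Its reads numbered 1013 in the PBS-labelled library, 863 after normo-Migs, 1043 after hypo-Migs and 1074 after CD147KO-Migs, or 9.62 (9.03 to 10.2), 8.24 (7.70 to 8.81), 8.46 (7.95 to 8.99) and 9.97 (9.39 to 10.6) FPKM. On the log2 scale, hypo-Migs against CD147KO-Migs gave -0.24 (-0.36 to -0.11), normo-Migs against CD147KO-Migs gave -0.28 (-0.41 to -0.15), and hypo-Migs against normo-Migs gave 0.04 (-0.09 to 0.17). Against PBS the values were -0.21 (-0.35 to -0.08), -0.18 (-0.30 to -0.05) and 0.06 (-0.06 to 0.19) with normo-Migs, hypo-Migs and CD147KO-Migs.

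TEAD4 (ENSG00000197905, chr12:2959330-3040673, + strand) was lowest with hypo-Migs. It had 1599 reads in the PBS-labelled library, 1598 after normo-Migs, 1492 after hypo-Migs and 1477 after CD147KO-Migs, or 20.4 (19.4 to 21.4), 20.5 (19.5 to 21.5), 16.2 (15.4 to 17.1) and 18.4 (17.5 to 19.3) FPKM. The hypo-Migs library was below the other 3, and the PBS-labelled library and that of normo-Migs had overlapping intervals. The log2 fold change of hypo-Migs was -0.33 (-0.44 to -0.23) against normo-Migs, -0.18 (-0.29 to -0.08) against CD147KO-Migs and -0.32 (-0.42 to -0.22) against PBS. None of these was past the fold.

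Although single TEAD genes differed in order, their sum was close across libraries. The summed FPKM of TEAD1 to TEAD4 was 67.3 in the PBS-labelled library, 65.1 after normo-Migs, 62.0 after hypo-Migs and 64.2 with CD147KO-Migs. TEAD1 made up 36.5% of this sum in the PBS-labelled library and 43.2% to 47.6% in the Mig libraries, while TEAD2 made up 18.9% and 12.1% to 12.6%. The coactivators together stood at 2.68 times the TEAD sum in the PBS-labelled library and at 0.409 to 0.433 times in the Mig libraries.

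The kinases LATS1 and LATS2, which inactivate YAP1 and TAZ by phosphorylation, were both lower in the PBS-labelled library. LATS1 (ENSG00000131023, chr6:149658153-149718256, - strand) had 979 reads there, 1440 after normo-Migs, 1635 after hypo-Migs and 1429 after CD147KO-Migs, or 3.28 (3.07 to 3.49), 4.85 (4.60 to 5.10), 4.67 (4.45 to 4.90) and 4.68 (4.44 to 4.93) FPKM. The Mig libraries lay within overlapping intervals of each other. Against PBS the log2 fold changes of LATS1 were 0.57 (0.46 to 0.69), 0.52 (0.41 to 0.64) and 0.52 (0.41 to 0.64), and between Mig libraries they ran from -0.05 to 0.05, with every interval including 0.

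LATS2, which is itself induced by YAP1 and TAZ as a feedback inhibitor, followed LATS1. LATS2 (ENSG00000150457, chr13:20973032-21061547, - strand) had 1093 reads in the PBS-labelled library, 1680 after normo-Migs, 1805 after hypo-Migs and 1744 after CD147KO-Migs, or 5.67 (5.33 to 6.01), 8.76 (8.35 to 9.19), 7.99 (7.63 to 8.37) and 8.84 (8.43 to 9.27) FPKM. Its log2 fold changes against PBS were 0.64 (0.53 to 0.75), 0.51 (0.40 to 0.62) and 0.65 (0.54 to 0.76). The hypo-Migs library had slightly less LATS2 than the other Mig libraries, with a log2 fold change of -0.13 (-0.23 to -0.04) against normo-Migs and -0.15 (-0.24 to -0.05) against CD147KO-Migs.

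Because YAP1 and the LATS kinases lay in opposite orders, their ratio separated the PBS-labelled library further than either alone. The FPKM of YAP1 was 19.7 times the summed FPKM of LATS1 and LATS2 in the PBS-labelled library, and 1.46 to 1.59 times in the Mig libraries. LATS2 stood at 1.71 to 1.89 times LATS1 in all 4 libraries.

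AMOTL2 (ENSG00000114019, chr3:134355874-134375479, - strand) encodes an angiomotin-like scaffold that binds YAP1 and TAZ and is also a known target of them. It had 6230 reads in the PBS-labelled library, 2135 after normo-Migs, 2356 after hypo-Migs and 2447 after CD147KO-Migs, or 30.1 (29.4 to 30.9), 10.4 (9.95 to 10.8), 9.73 (9.34 to 10.1) and 11.6 (11.11 to 12.03) FPKM. The PBS-labelled library was far above the others, and among Mig libraries CD147KO-Migs was the highest. Its log2 fold changes against PBS were -1.53 (-1.60 to -1.46), -1.62 (-1.69 to -1.55) and -1.37 (-1.44 to -1.30), or 2.88-fold, 3.08-fold and 2.58-fold lower with normo-Migs, hypo-Migs and CD147KO-Migs. Hypo-Migs against CD147KO-Migs gave -0.25 (-0.33 to -0.17), and hypo-Migs against normo-Migs gave -0.09 (-0.18 to -0.01).

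ANKRD1 (ENSG00000148677, chr10:90912096-90921276, - strand), a muscle ankyrin repeat gene widely used as a readout of YAP1 and TAZ activity, was close to the limit of detection. It had 22 reads in the PBS-labelled library, 7 after normo-Migs, 4 after hypo-Migs and 14 after CD147KO-Migs, or 0.321 (0.201 to 0.487), 0.103 (0.0414 to 0.212), 0.0499 (0.0136 to 0.128) and 0.200 (0.109 to 0.336) FPKM. It was tested because the PBS-labelled library and that of CD147KO-Migs reached the minimum of 10 reads. The interval of the PBS-labelled library overlapped those of normo-Migs and CD147KO-Migs. Its log2 fold changes were -1.41 (-3.10 to -0.36) and -2.16 (-4.67 to -1.12) for normo-Migs and hypo-Migs against PBS, and -1.55 (-4.06 to -0.33) for hypo-Migs against CD147KO-Migs. They depended on the pseudocount, since log2(FPKM + 1) gave -0.26, -0.33 and -0.19 for the same pairs. For CD147KO-Migs against PBS the value was -0.61 (-1.75 to 0.36).

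**Figure D2:**
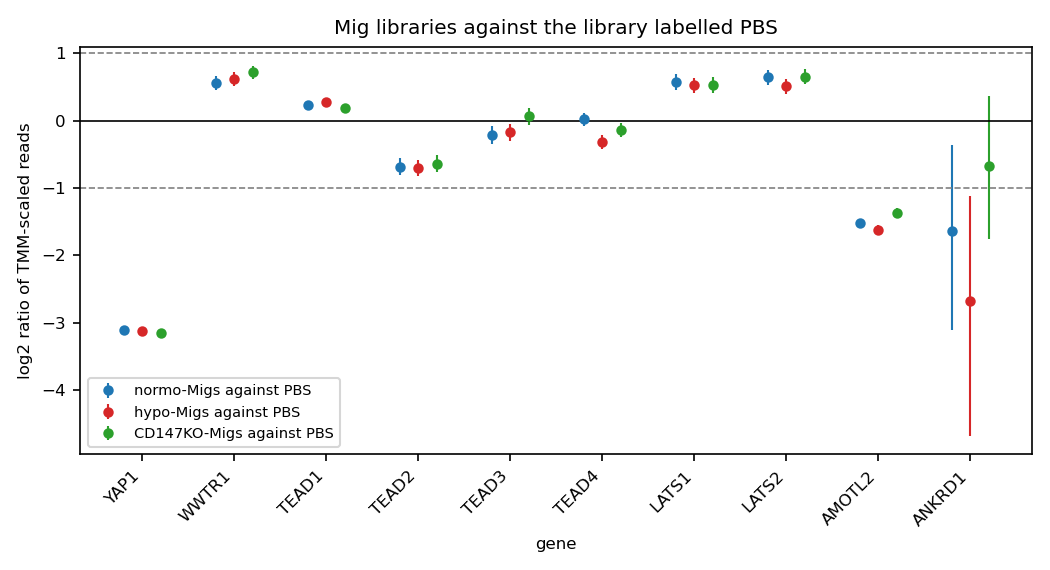
Log2 ratio of TMM-scaled reads, without a prior count, of each Mig library against the PBS-labelled library for the 10 genes, with exact 95% intervals that cover counting error and dashed lines at the fold of 1. YAP1 lies near -3.12 and AMOTL2 between -1.62 and -1.37 in the 3 comparisons, while WWTR1, LATS1 and LATS2 lie between 0.51 and 0.71.

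Counted over the 10 genes, the comparisons with PBS gave calls in the lower direction only. Past the fold were 3 of 10 genes with normo-Migs (YAP1, AMOTL2 and ANKRD1), the same 3 with hypo-Migs, and 2 with CD147KO-Migs (YAP1 and AMOTL2), beside 30.2%, 30.5% and 30.3% of all genes tested. All of these were lower in the Mig library, a direction taken by 12% of all genes tested after normo-Migs, 11.6% after hypo-Migs and 12% with CD147KO-Migs. The median log2 fold change of the 10 genes was -0.10, -0.25 and -0.04, and that of all genes tested was 0.03, 0.04 and 0.03. The exact interval left out equal levels for 9, 10 and 8 of the 10 genes, against 70.7%, 72.1% and 70.9% of all genes tested. These counts depend on depth, because the interval narrows as reads rise. Apart from ANKRD1, the 10 genes had 806 reads or more in every library, while 10 reads in any library sufficed for testing. The share of all genes is therefore not a like-for-like background here. Of the 10 genes, 4 had their highest level in the PBS-labelled library (YAP1, TEAD2, AMOTL2 and ANKRD1), 4 had their lowest level there (WWTR1, TEAD1, LATS1 and LATS2), and TEAD3 and TEAD4 lay inside the range of the Mig libraries.

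Compared among themselves, the Mig libraries differed little in these genes. Past the fold were 0 of 10 genes for hypo-Migs against normo-Migs, 1 for hypo-Migs against CD147KO-Migs (ANKRD1, with 4 and 14 reads) and 0 for normo-Migs against CD147KO-Migs, beside 9.34%, 9.12% and 9.69% of all genes tested. The median log2 fold change of the 10 genes was -0.04, -0.12 and -0.03 in these pairs, and that of all genes tested was 0.00 in each. The interval left out equal levels for 4, 7 and 5 genes, against 34.9%, 35% and 34.5% of all genes tested. Here too the count depends on depth, so the share of all genes is not a like-for-like background. Among 9158 deeply read genes, whose mean over the Mig libraries was 500 reads or more, the absolute log2 fold change stayed under 0.2501, 0.2482 and 0.2695 for 95% of genes in these pairs. TEAD4 in hypo-Migs against normo-Migs (-0.33), AMOTL2 in hypo-Migs against CD147KO-Migs (-0.25) and TEAD3 in normo-Migs against CD147KO-Migs (-0.28) lay beyond that range, the last pair of them narrowly. The FPKM of YAP1 varied 1.02-fold from the lowest to the highest Mig library, that of LATS1 1.04-fold, that of TEAD2 1.04-fold, and that of TEAD4 1.26-fold. Scaled and filtered without the PBS-labelled library, all 3 pairs kept these counts of 0, 1 and 0.

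**Figure D3:**
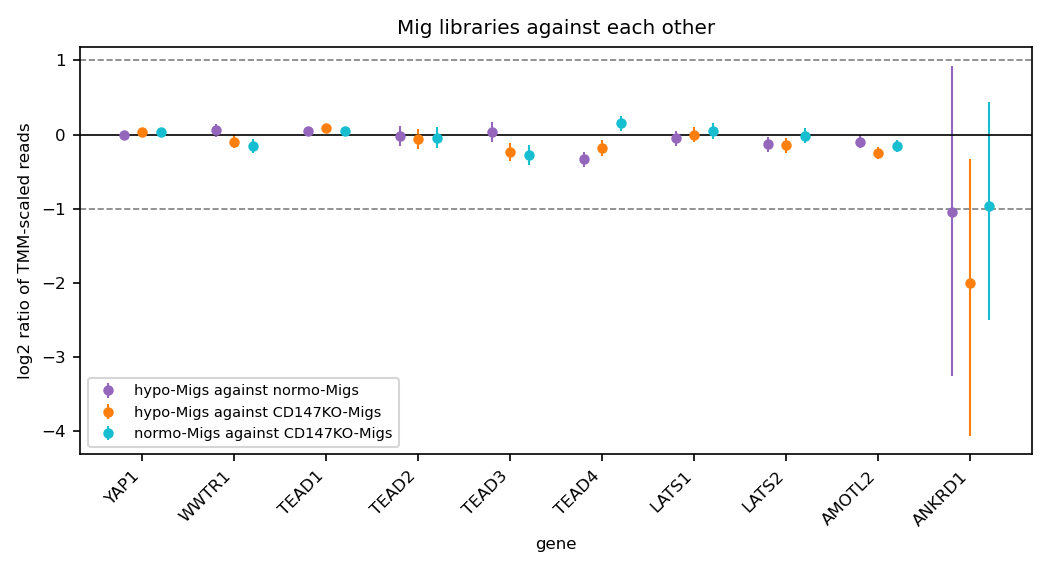
Log2 ratio of TMM-scaled reads, without a prior count, between the 3 pairs of Mig libraries for the 10 genes, with exact 95% intervals that cover counting error and dashed lines at the fold of 1. Apart from ANKRD1, whose intervals rest on 4 to 14 reads, the genes lie between -0.34 and 0.15, with TEAD4 in hypo-Migs against normo-Migs the lowest.

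The wider pathway was described with lists of other Hippo genes. The kinase cascade list held 17 genes, among them the MST, MAP4K, TAOK, NDR and MOB genes and SAV1, which activate or accompany LATS, and all 17 were tested. With hypo-Migs against PBS, 2 were past the fold, both higher, and the median log2 fold change was 0.28, beside 30.5% of all genes tested past the fold. With normo-Migs and CD147KO-Migs 1 gene each was past the fold, beside 30.2% and 30.3% of all genes tested, with medians of 0.11 and 0.36. TNIK, a kinase of the MAP4K group also known for its part in Wnt signalling, had 63 reads in the PBS-labelled library and 397, 458 and 441 with normo-Migs, hypo-Migs and CD147KO-Migs, a log2 fold change of 2.61 (2.26 to 3.05) for hypo-Migs. MAP4K3, a kinase upstream of LATS, had 831, 1567, 2062 and 1642 reads, a log2 fold change of 1.09 for hypo-Migs and of 0.93 and 0.96 for normo-Migs and CD147KO-Migs. MINK1, of the same kinase group, differed in the other direction with 30.5 FPKM in the PBS-labelled library and 18.0 to 19.5 FPKM in the Mig libraries, and STK38L (NDR2) was at 4.01 and 6.52 to 7.37 FPKM. By mean FPKM over the 4 libraries, STK38 and the LATS cofactor MOB1A were the highest of the list, at 21.6 to 28.6 and 22.80 to 24.00 FPKM across all 4 libraries. No gene of the list was past the fold in any pair of Mig libraries, where the medians were 0.06, -0.04 and -0.05. Of all genes tested, 9.12% to 9.69% were past the fold in these pairs.

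Upstream regulators comprised 32 genes of cell polarity, junctions and the FAT and DCHS cadherins, of which 31 were tested. Past the fold against PBS were 6 higher and 3 lower with normo-Migs, 6 higher and 2 lower with hypo-Migs, and 6 higher and 2 lower with CD147KO-Migs, and the medians were 0.08, 0.09 and 0.08. Of all genes tested, 18.1%, 18.9% and 18.3% were past the fold and higher, and 12%, 11.6% and 12% were past it and lower. FAT4, an atypical cadherin that acts upstream of the pathway, had 84 reads in the PBS-labelled library and 973, 1207 and 969 in the Mig libraries, a log2 fold change of 3.60 (3.31 to 3.96) for hypo-Migs. CRB3, a polarity protein of the apical membrane, had 553 reads in the PBS-labelled library and 164, 132 and 97 in the Mig libraries, a log2 fold change of -2.27 (-2.57 to -2.01) for hypo-Migs. The LATS-binding LIM protein gene WTIP and the scaffold gene DLG5 gave 1.70 and 1.23 in the same comparison. SCRIB, a basolateral polarity scaffold, and WWC1 (KIBRA), an activator of LATS, had the highest mean FPKM of the list over the 4 libraries, at 37.8 and 14.6 FPKM in the PBS-labelled library and at 27.3 to 29.6 and 20.6 to 21.4 FPKM in the Mig libraries. FAT3 had 0 reads in the PBS-labelled library and 28, 10 and 14 in the Mig libraries. CRB1 had 1 and 17, 25 and 23 reads, and DCHS1 had 4 and 15, 32 and 21. These genes were among the higher calls in each comparison with PBS, on few reads, and reached the minimum of 10 reads only in Mig libraries. CRB2, with 37 and 16, 34 and 15 reads, was among the lower calls with normo-Migs and CD147KO-Migs only. In pairs of Mig libraries the calls were FAT3, with 10 reads after hypo-Migs and 28 after normo-Migs, and FAT2, with 26 after hypo-Migs and 9 after CD147KO-Migs, both of few reads. The share of all genes tested past the fold was 9.12% to 9.69% in the pairs of Mig libraries.

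Among 16 binding partners of YAP1, TAZ and TEAD factors, 14 were tested. Past the fold against PBS were 3 higher and 2 lower with normo-Migs, 2 higher and 2 lower with hypo-Migs, and 3 higher and 2 lower with CD147KO-Migs, and each median lay between 0.06 and 0.07. The shares of all genes tested past the fold were 30.2%, 30.5% and 30.3%. TP73, a p53 family factor that binds YAP1, had 43 reads in the PBS-labelled library and 503, 500 and 537 in the Mig libraries, a log2 fold change of 3.27 for hypo-Migs. RUNX2, a factor of bone formation that binds YAP1, had 89 reads against 330, 310 and 308, a log2 fold change of 1.56. AMOT was the remaining higher call with normo-Migs and CD147KO-Migs, on 3 reads in the PBS-labelled library and 10, 6 and 10 in the Mig libraries. It reached the minimum of 10 reads only in the libraries where it was called, and its intervals there included 0 (-0.20 to 4.26 and -0.24 to 4.22). SFN (14-3-3 sigma), a phosphoprotein-binding gene whose family retains YAP1 in the cytoplasm, was at 282 FPKM in the PBS-labelled library and 80.8, 71.8 and 84.7 FPKM in the Mig libraries, a log2 fold change of -1.96. AMOTL1, the paralogue of AMOTL2, was also lower in the Mig libraries, with 1848 reads against 788, 958 and 725 and a log2 fold change of -1.16 for hypo-Migs. YWHAE and YWHAQ, the 14-3-3 genes with the highest mean FPKM over the 4 libraries, were at 298 and 189 FPKM in the PBS-labelled library and at 204 to 212 and 206 to 223 FPKM in the Mig libraries. In pairs of Mig libraries 0 of the 14 genes were past the fold, beside 9.12% to 9.69% of all genes tested.

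Genes known as targets of YAP1 and TAZ gave no single direction against PBS. The list was a published signature of 22 genes, all tested, of which LATS2, AMOTL2 and ANKRD1 were among the 10 genes above. Past the fold were 3 higher and 6 lower with normo-Migs, 3 higher and 6 lower with hypo-Migs, and 3 higher and 5 lower with CD147KO-Migs, with medians of -0.11, -0.19 and -0.19. Of all genes tested, 18.1%, 18.9% and 18.3% were past the fold and higher in these comparisons, and 12%, 11.6% and 12% lower. Without the 3 shared genes, 3 higher and 4 lower of 19 were past the fold in each comparison, and the medians were 0.02, -0.12 and -0.11. Promoter windows were found for 16 of the 22 genes, and 9 of these held the TEAD letters shown above, beside 16.7% of all genes with a window.

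The classical targets were split. CCN2 (CTGF), a secreted matricellular protein and a standard readout of YAP1, had 44 reads in the PBS-labelled library, 205 after normo-Migs, 249 after hypo-Migs and 223 after CD147KO-Migs. Its log2 fold changes against PBS were 2.19 (1.76 to 2.74), 2.23 (1.82 to 2.78) and 2.27 (1.85 to 2.82). CCN1 (CYR61), its close relative, had 2791, 1596, 1886 and 1928 reads in the same order, with log2 fold changes of -0.79, -0.78 and -0.55. CCN2 was thus lowest and CCN1 highest in the PBS-labelled library, where YAP1 was highest. FJX1, the human relative of a fly kinase that modifies FAT and DCHS cadherins, had 39 reads in the PBS-labelled library and 1091, 1180 and 1172 in the Mig libraries, and its log2 fold change for hypo-Migs was 4.63 (4.24 to 5.20). IGFBP3, which binds insulin-like growth factors, had 12928 reads in the PBS-labelled library and 1870, 2401 and 1429 in the Mig libraries, and its log2 fold change for hypo-Migs was -2.65 (-2.71 to -2.58). RBMS3, an RNA-binding protein gene, had 276 reads against 70, 68 and 71. MYOF and CRIM1, the targets with the highest mean FPKM over the 4 libraries, were at 51.6 and 30.7 FPKM in the PBS-labelled library and at 42.8 to 43.5 and 32.8 to 34.7 FPKM in the Mig libraries.

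**Figure D4:**
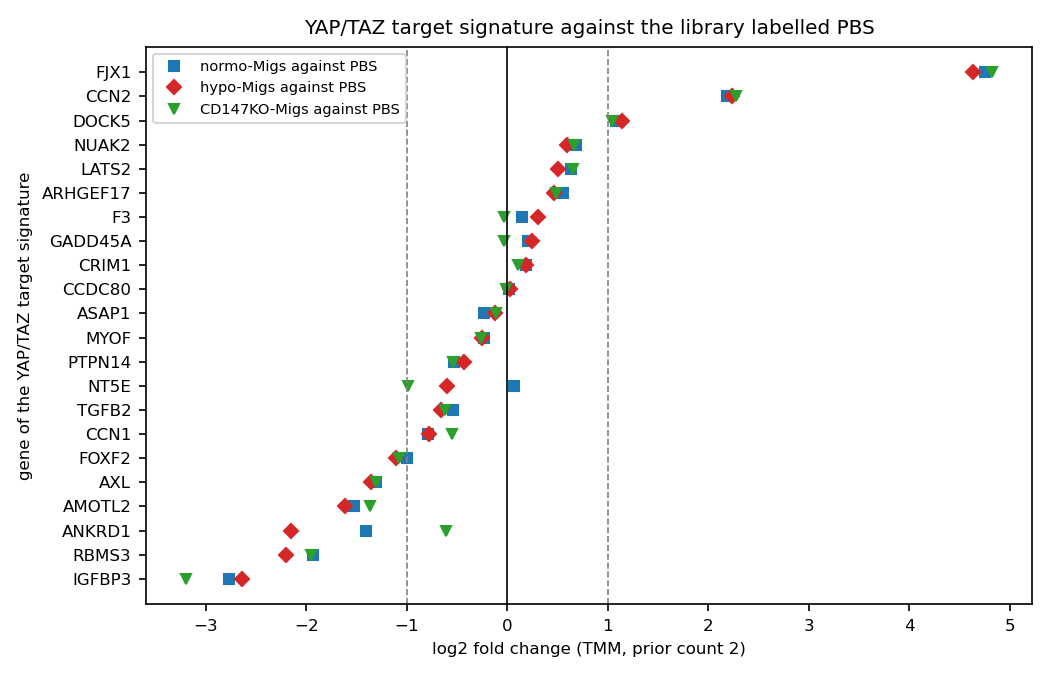
Log2 fold changes of the 22 signature genes in each Mig library against the PBS-labelled library, ordered by the value for hypo-Migs, with dashed lines at the fold of 1. FJX1 at 4.63 and CCN2 at 2.23 stand at the upper end, IGFBP3 at -2.65 and RBMS3 at -2.20 at the lower end, and 3 genes are past the fold above and 6 below for hypo-Migs.

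Between Mig libraries the signature had small median differences. For hypo-Migs against normo-Migs 0 of 22 genes were past the fold, beside 9.34% of all genes tested, with a median of -0.03. For hypo-Migs against CD147KO-Migs 1 was, the low-read gene ANKRD1, beside 9.12% of all genes tested, with a median of -0.03. For normo-Migs against CD147KO-Migs 1 was, beside 9.69% of all genes tested, with a median of 0.02. This gene was NT5E (CD73), named after its values were seen. It had 983 reads after normo-Migs, 727 after hypo-Migs, 484 with CD147KO-Migs and 948 in the PBS-labelled library, a log2 fold change of 1.06 between normo-Migs and CD147KO-Migs. IGFBP3 gave 0.55 for hypo-Migs against CD147KO-Migs, CCN2 -0.04 and CCN1 -0.23.

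AP-1 factors, which bind many enhancers together with TEAD factors, were measured as 7 subunits, all tested. Past the fold against PBS were 0 higher and 2 lower with normo-Migs, 1 higher and 2 lower with hypo-Migs, and 1 higher and 1 lower with CD147KO-Migs, with medians of -0.46, -0.43 and -0.37, beside 30.2%, 30.5% and 30.3% of all genes tested past the fold in either direction. FOSL1 was at 23.0 FPKM in the PBS-labelled library and 6.37, 6.05 and 6.40 FPKM in the Mig libraries, whereas JUNB was at 32.6 and 64.6, 65.2 and 63.9 FPKM. JUND, nearly as abundant, was at 41.9 and 53.8 to 58.9 FPKM. FOS had 384 reads in the PBS-labelled library, 567 after normo-Migs, 859 after hypo-Migs and 894 after CD147KO-Migs, and FOSB had 90, 42, 51 and 70 reads. FOSL1 was called lower in each comparison with PBS, and the other calls included values close to the threshold. With normo-Migs, hypo-Migs and CD147KO-Migs, JUNB gave 0.996, 1.011 and 0.983, FOS 0.58, 0.94 and 1.19, and FOSB -1.05, -1.01 and -0.37. In pairs of Mig libraries 0 of the 7 genes were past the fold, beside 9.12% to 9.69% of all genes tested. FOS gave 0.36 for hypo-Migs against normo-Migs and -0.25 for hypo-Migs against CD147KO-Migs.

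Because YAP1 stood so far out in 1 library, the genes around it on chromosome 11 were examined after its values had been seen. Among genes that start within 1 Mb of the YAP1 start on either side, 11 protein-coding genes were tested, YAP1 among them. Of the 10 others, 4 were past the fold lower and 3 higher with hypo-Migs against PBS, beside 11.6% and 18.9% of all genes tested. CEP126, which encodes a centrosomal protein and starts at -195 kb from the YAP1 start, had 2898 reads in the PBS-labelled library and 102, 152 and 161 in the Mig libraries, a log2 fold change of -4.45 (-4.72 to -4.24) for hypo-Migs. BIRC3, an inhibitor of apoptosis gene that starts at 207 kb, had 6988 reads against 534, 704 and 623, a log2 fold change of -3.52 (-3.64 to -3.42). The lincRNA AP001527.2, which starts at -0.634 kb, had 217 reads against 23, 25 and 21. All 3 shared with YAP1 a high level in the PBS-labelled library and a low level in each Mig library. The remaining lower genes, TRPC6 and ANGPTL5, had 14 and 59 reads in the PBS-labelled library and 0 to 2 reads in the others.

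Other neighbours did not follow this order. BIRC2, the paralogue next to BIRC3 at 237 kb, had 1961 reads in the PBS-labelled library and 1746, 2260 and 1838 in the Mig libraries, a log2 fold change of -0.01 (-0.10 to 0.07) for hypo-Migs. TMEM123 at 286 kb had 9269 reads against 7404, 9316 and 7269, a log2 fold change of -0.21. MMP7, a matrix metalloproteinase gene at 410 kb, was the other way round, with 5 reads in the PBS-labelled library and 130, 123 and 95 in the Mig libraries. The remaining higher genes with hypo-Migs were DYNC2H1 and MMP13. DYNC2H1 had 520 reads in the PBS-labelled library and 1395, 1769 and 1333 in the Mig libraries. MMP13 had few reads, with 0 in the PBS-labelled library, 0 after normo-Migs, 16 after hypo-Migs and 7 after CD147KO-Migs. DNA copy number was not measured in these libraries, and its part in these levels was not tested.

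**Figure D5:**
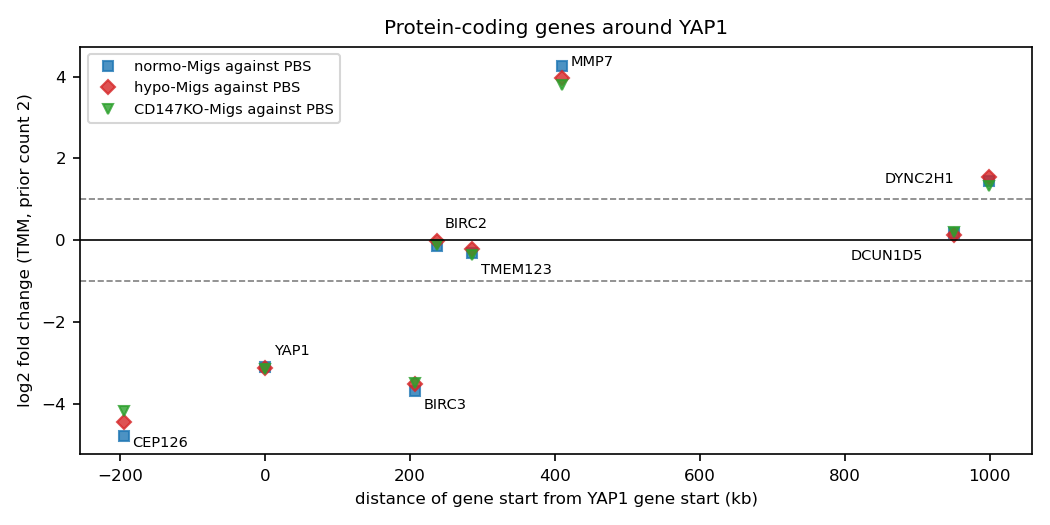
Log2 fold changes of protein-coding genes that start within 1 Mb of the YAP1 start and had over 3 reads in every library, for each Mig library against the PBS-labelled library, by the distance of the gene start from the YAP1 start in kb, with dashed lines at the fold of 1. CEP126, YAP1 and BIRC3 lie below -3.0, BIRC2, TMEM123 and DCUN1D5 lie between the dashed lines, and MMP7 and DYNC2H1 lie above them.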

How the data were processed

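MHCC-97H cells were sequenced with 1 library per condition. The authors deposited raw counts, the reads counted per gene without normalization, and FPKM, which the authors scaled to library size and gene length. The submitters' processing notes name CASAVA 1.8, fastp, HISAT2 2.0.5, featureCounts 1.5.0-p3 and hg38, and strand handling is not given in the sources used here. The supplementary methods describe poly-T selection and random hexamers, whereas the labels name a SMARTER kit. Both tables held 58735 genes, of which 58724 have the same coordinates in GENCODE release 29.

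The 19895 genes reaching 10 reads in any library were tested. Log2 fold changes came from edgeR 4.0.16 in R 4.3.3, with TMM factors of 0.986 to 1.02 and a prior count of 2, and ratios of reads were given exact 95% Clopper-Pearson intervals. Levels were given exact Poisson intervals with scipy 1.17.1, and FPKM intervals were scaled from those of the reads. Depth ranged from 33882496 to 40285223 reads per library, so that the 3 reads a count of 0 allows are 0.0745 to 0.0885 CPM. No test of conditions was made, since 1 library per condition leaves no residual degrees of freedom. The procedure was run on simulated reads with known changes, drawn for every library from the mean of the Mig libraries. The simulation held counting error only, with no spread between cultures and no PBS-labelled library that stood apart. It therefore does not show how far the calls would hold between cultures. Alternatives were DESeq2 1.42.0 size factors, total reads, a prior count of 0.25, log2(FPKM + 1), log2(FPKM + 0.1), 2 other filters, and the edgeR exact binomial test of reads added to the fold. One more, without the PBS-labelled library, was chosen after seeing the data. The fold criterion followed the study's methods.

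The 10 genes and the lists were chosen with earlier results of these data known. Named from each list were up to 4 genes with the largest difference between hypo-Migs and PBS (mean of 50 reads or more), up to 2 with the highest mean FPKM, and CCN1 and CCN2. FAT2, FAT3, CRB1, CRB2, DCHS1, AMOT, NT5E and the neighbours of YAP1 were added after their values were seen. Promoter sequences came from RefSeq windows of GRCh38.p14. Python 3.11.15 with pandas 2.3.3 and matplotlib 3.10.9 was used for tables and figures.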

Additional observations from a re-analysis of the deposited data

How the results depend on the processing

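Of 444 log2 fold changes of the 10 genes recomputed under 8 alternatives, 431 stayed within the counting interval of the value reported and 13 moved outside it, 11 of them with log2(FPKM + 1) and 2 with total reads. No value past the fold changed sign, while YAP1 for hypo-Migs against normo-Migs, TEAD4 for normo-Migs against PBS and LATS1 for hypo-Migs against CD147KO-Migs lay so close to 0 that their signs turned with the setting. With log2(FPKM + 1), and also when every library had to reach 10 reads, which leaves out ANKRD1, 0 genes of the 10 were past the fold for hypo-Migs against CD147KO-Migs in place of 1, and 2 in place of 3 for normo-Migs and for hypo-Migs against PBS. Counts over all genes depended on low reads. For normo-Migs, hypo-Migs and CD147KO-Migs against PBS, 6003, 6067 and 6033 genes were past the fold, but 1619, 1674 and 1658 with log2(FPKM + 1), 2684, 2744 and 2753 with at least 10 reads in every library, and 10676, 9625 and 10759 without a filter. For hypo-Migs against normo-Migs, hypo-Migs against CD147KO-Migs and normo-Migs against CD147KO-Migs, 1858, 1814 and 1928 genes were past the fold, but 56, 80 and 66 with log2(FPKM + 1), 1021, 1005 and 1037 with log2(FPKM + 0.1), 253, 233 and 264 with at least 10 reads in every library, 5103, 4968 and 5930 without a filter, and 975, 1003 and 977 when an adjusted p of 0.05 or less in the edgeR exact binomial test of the reads was also required. Those counts move because the pseudocount shrinks, and the filters remove or admit, genes of few reads. No paired analysis was possible because each condition had 1 library, and for the same reason no library could be left out of a condition. Depth limits ANKRD1, whose 4 to 22 reads give intervals that include a wide range of differences.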
